A study of Mus musculus with 9 samples.

Results

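Ppef1, Tm4sf5, Gabrp, Cyp2s1 and Fscn1 are 5 protein-coding genes whose RNA levels lay far apart between a pair of Usp22 knockouts of the same mouse pancreatic tumor cells. They were chosen by the difference between Usp22-KOA and Usp22-KOB in these same samples, so that difference is described below without a test. The 5 genes are rows of a table of 24493 genes, and all 5 were among the 13843 genes that averaged 1 TPM or more over the 9 samples and were tested. Ppef1 passed that limit only through its level in Usp22-KOA. TPM is the estimated abundance of a gene's transcripts, corrected for their length and scaled so that each library sums to 1000000.

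The 9 samples were polyadenylated RNA of late-stage tumor cells of the line 6419c5, on a C57BL/6 background, taken from tumors implanted under the skin. There were 3 samples of Usp22-KOA, 3 of Usp22-KOB and 3 of WT, and all groups carry the name of this 1 line. The labels do not say what the letters A and B stand for, whether a knockout is 1 clone or a pool of cells, or how tumor cells were separated from the rest of the tumor. Usp22, which encodes a deubiquitinating enzyme of the SAGA complex, averaged 9.44 ± 0.867 TPM in Usp22-KOA, 13.6 ± 1.62 TPM in Usp22-KOB and 55.3 ± 0.977 TPM in WT (SD, n = 3 each). Nothing in the labels says that the samples came from separate mice, so each p-value below reflects the variation among these particular samples and could be technical.

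The 5 genes are not known as members of one pathway. Ppef1 encodes a serine/threonine phosphatase with calcium-binding EF-hands, and it is best known from sensory neurons. Tm4sf5 encodes a membrane protein with 4 transmembrane segments, of the L6 family related to tetraspanins, and is studied in liver and gut epithelium. Gabrp encodes the pi subunit of the GABA-A receptor, a chloride channel opened by the transmitter GABA, and this subunit is found mainly outside the brain. Cyp2s1 encodes a cytochrome P450 of epithelia that can metabolise retinoids and is induced through the aryl hydrocarbon receptor. Fscn1 encodes fascin, which bundles actin filaments in filopodia and is also abundant in mature dendritic cells.

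In GRCm38 (GENCODE M21), the assembly also called mm10, the genes lie on 4 chromosomes. Ppef1 is on the minus strand of chromosome X at 160623094 to 160735765, Cyp2s1 on the minus strand of chromosome 7 at 25802475 to 25816913 and Fscn1 on the plus strand of chromosome 5 at 142960343 to 142973185. Tm4sf5 (plus strand, 70505244 to 70511178) and Gabrp (minus strand, 33550781 to 33578959) are both on chromosome 11, as is Usp22 (minus strand, 61151785 to 61175055). The midpoints of Tm4sf5 and Gabrp are 9.34 Mb and 27.6 Mb from that of Usp22. A pair of short pseudogenes lies inside Ppef1, and a pseudogene and a long noncoding RNA gene on the other strand overlap Cyp2s1. None of these has a row in the table, and the sources do not say whether the libraries kept the strand.

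The promoter windows are shown because 4 of the genes were low in the same samples and Ppef1 was high in them. Each window runs from 250 bases before to 50 bases after a RefSeq start in GRCm38.p6 and is written 5′ to 3′ on the gene's strand, and all 5 genes had one. Capitals mark matches, on either strand, to any of 6 short motifs: the TATA box TATAAA, the cAMP response element TGACGTCA, the core of the aryl hydrocarbon receptor site GCGTG, the E-box CACCTG read by Zeb and Snail factors, the AP-1 site TGANTCA and the box CCAAT. The windows are, for Ppef1, chrX:160719923-160720222 (minus strand), for Tm4sf5, chr11:70505024-70505323 (plus strand), for Cyp2s1, chr7:25816476-25816775 (minus strand), and for Fscn1, chr5:142960105-142960404 (plus strand).
Ppef1: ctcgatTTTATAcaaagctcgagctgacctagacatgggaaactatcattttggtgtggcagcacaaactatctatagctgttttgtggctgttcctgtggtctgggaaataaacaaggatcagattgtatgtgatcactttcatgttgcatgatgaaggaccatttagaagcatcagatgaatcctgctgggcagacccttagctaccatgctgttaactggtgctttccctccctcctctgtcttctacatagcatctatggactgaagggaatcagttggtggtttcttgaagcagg
Tm4sf5: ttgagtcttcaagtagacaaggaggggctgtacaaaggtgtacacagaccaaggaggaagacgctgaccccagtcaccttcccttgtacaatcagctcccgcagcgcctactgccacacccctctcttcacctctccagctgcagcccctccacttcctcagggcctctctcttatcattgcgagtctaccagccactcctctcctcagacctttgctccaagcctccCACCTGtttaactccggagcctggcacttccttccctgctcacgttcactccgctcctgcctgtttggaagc
Cyp2s1: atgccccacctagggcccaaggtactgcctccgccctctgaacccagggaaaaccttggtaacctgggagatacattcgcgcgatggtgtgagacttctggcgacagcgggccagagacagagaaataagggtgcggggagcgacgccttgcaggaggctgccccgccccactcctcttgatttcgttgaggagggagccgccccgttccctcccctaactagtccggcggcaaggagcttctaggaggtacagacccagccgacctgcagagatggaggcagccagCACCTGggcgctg
Fscn1: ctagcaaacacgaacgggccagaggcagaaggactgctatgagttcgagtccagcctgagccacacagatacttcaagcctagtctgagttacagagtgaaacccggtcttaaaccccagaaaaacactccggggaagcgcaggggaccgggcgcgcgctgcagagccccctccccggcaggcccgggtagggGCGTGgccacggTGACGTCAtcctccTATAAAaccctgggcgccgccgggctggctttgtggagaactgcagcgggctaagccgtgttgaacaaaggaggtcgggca

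The start used for Ppef1, 160719972, lies inside the gene as GENCODE M21 draws it, so other starts of this gene were not covered. In the Gabrp window (chr11:33578908-33579207, minus strand) none of the 6 motifs matched. The E-box matched in Tm4sf5, at -22 from the start, and in Cyp2s1, at 38, and in 20.2% of the 32851 windows of all genes. Fscn1 held the cAMP response element at -45, which 1.79% of all windows held, a TATA box at -31 and the aryl hydrocarbon receptor core at -57. The TATA box letters, in 13.6% of all windows, also stood at -244 in Ppef1, on the opposite strand. The AP-1 and CCAAT letters, in 7.81% and 37.4% of all windows, were in none of the 5, and the receptor core, in 32.4% of all windows, was not in the Cyp2s1 window. CpG dinucleotides were scarce in Ppef1 (2 of them), Gabrp (4) and Tm4sf5 (7) and more frequent in Cyp2s1 (17) and Fscn1 (21). The observed CpG count divided by that expected from the C and G content was 0.136 for Ppef1, 0.212 for Gabrp, 0.326 for Tm4sf5, 0.571 for Cyp2s1 and 0.738 for Fscn1, where the median over 10507 tested genes was 0.748. All 5 windows were below that median, but Fscn1 only just. The share of tested genes with a lower ratio was 4.76% for Ppef1, 8.94% for Gabrp and 15.4% for Tm4sf5. It was 29.5% for Cyp2s1 and 48.5% for Fscn1. A motif match or its absence says nothing about binding.

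In each of the 5 genes Usp22-KOA stood apart from the other groups on the log2(TPM + 1) scale used below, and WT lay nearer to Usp22-KOB. In plain TPM the Usp22-KOB means of Tm4sf5 and Gabrp lay nearer to Usp22-KOA than to WT. Ppef1 was high in Usp22-KOA and near or under 1 TPM elsewhere. Tm4sf5, Gabrp and Cyp2s1 were near or under 1 TPM in Usp22-KOA and high in both other groups. Fscn1 was low but clearly present in Usp22-KOA and was the one gene of the 5 with its highest values in Usp22-KOB. The genes were thus far apart between the knockouts, but with WT included Usp22-KOA was the group farther from WT for each of them.

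**Figure D1:**
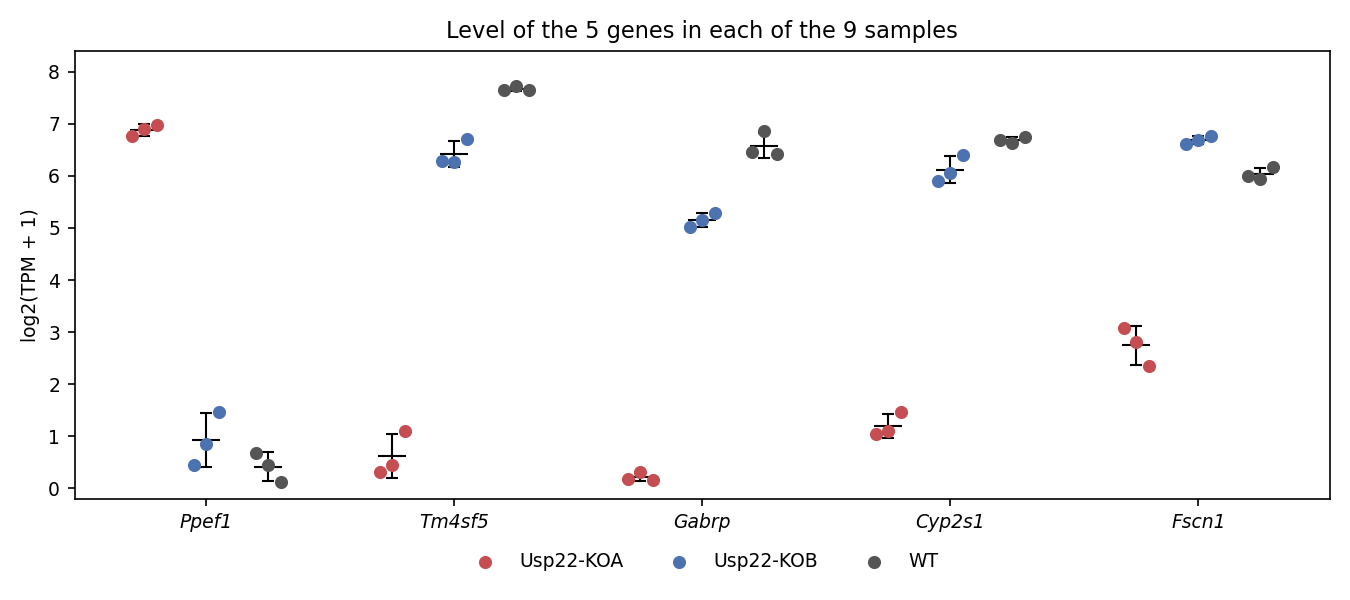
Each point is the log2(TPM + 1) of 1 sample for Ppef1, Tm4sf5, Gabrp, Cyp2s1 and Fscn1 in Usp22-KOA, Usp22-KOB and WT, with the group mean and SD (n = 3). The Usp22-KOA points are above all others for Ppef1 and below all others for the other genes.

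Ppef1 stood at 107.6, 118.8 and 125.3 TPM in Usp22-KOA, at 0.358, 0.818 and 1.78 TPM in Usp22-KOB, and at 0.603, 0.359 and 0.0923 TPM in WT. All Usp22-KOA values were far above the rest, and the Usp22-KOB and WT values overlapped. The group means were 117.2 ± 8.95 TPM in Usp22-KOA, 0.984 ± 0.723 TPM in Usp22-KOB and 0.351 ± 0.255 TPM in WT (SD, n = 3 each). The ratio of means was 119-fold for Usp22-KOA over Usp22-KOB and 334-fold for Usp22-KOA over WT. Both ratios rest on denominators under 1 TPM, whose samples differed among themselves by up to 4.95-fold in Usp22-KOB and 6.53-fold in WT. On the log2(TPM + 1) scale, which understates the change of low genes, Usp22-KOA differed from Usp22-KOB by 5.96 ± 0.24 (SE), the largest absolute difference of all 13843 tested genes on this scale. That order depends on the pseudocount, since log2(TPM + 0.1) gave 6.99 for Ppef1, -7.18 for Tm4sf5 and -7.05 for Gabrp.

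Tm4sf5 stood at 0.245, 0.358 and 1.16 TPM in Usp22-KOA, at 77.3, 75.8 and 103.2 TPM in Usp22-KOB, and at 198.6, 211.0 and 199.3 TPM in WT. The 3 groups did not overlap and ran in the order Usp22-KOA, Usp22-KOB, WT. Means were 0.587 ± 0.498 TPM in Usp22-KOA, 85.4 ± 15.4 TPM in Usp22-KOB and 203.0 ± 6.997 TPM in WT (SD, n = 3 each), so the knockouts held 0.289% and 42.1% of the WT mean. The log2 difference of Usp22-KOA from Usp22-KOB was -5.80 ± 0.20 (SE), second in size after Ppef1 on this scale.

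Gabrp had the lowest Usp22-KOA values of the 5 genes. It stood at 0.139, 0.242 and 0.117 TPM in Usp22-KOA, at 31.6, 34.4 and 38.0 TPM in Usp22-KOB, and at 87.3, 114.9 and 84.01 TPM in WT. The groups again did not overlap and kept the order seen for Tm4sf5. Means were 0.166 ± 0.0668 TPM in Usp22-KOA, 34.7 ± 3.22 TPM in Usp22-KOB and 95.4 ± 17.0 TPM in WT (SD, n = 3 each), which is 0.174% and 36.3% of WT. The log2 difference of Usp22-KOA from Usp22-KOB was -4.93 ± 0.13 (SE).

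Cyp2s1 stood at 1.07, 1.14 and 1.76 TPM in Usp22-KOA, at 58.4, 65.8 and 83.6 TPM in Usp22-KOB, and at 102.0, 98.7 and 106.3 TPM in WT. The groups did not overlap, but Usp22-KOB and WT lay much closer to each other than for Tm4sf5 or Gabrp. Means were 1.33 ± 0.380 TPM in Usp22-KOA, 69.3 ± 12.99 TPM in Usp22-KOB and 102.3 ± 3.84 TPM in WT (SD, n = 3 each), or 1.30% and 67.7% of WT. The log2 difference of Usp22-KOA from Usp22-KOB was -4.91 ± 0.14 (SE).

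Fscn1 stood at 7.51, 6.03 and 4.08 TPM in Usp22-KOA, at 97.2, 101.9 and 107.5 TPM in Usp22-KOB, and at 63.1, 60.3 and 71.2 TPM in WT. The groups did not overlap, with Usp22-KOA below WT and Usp22-KOB above it, an arrangement found in 2.99% of all tested genes. Means were 5.87 ± 1.72 TPM in Usp22-KOA, 102.2 ± 5.18 TPM in Usp22-KOB and 64.8 ± 5.66 TPM in WT (SD, n = 3 each), or 9.06% and 157.6% of WT. The log2 difference of Usp22-KOA from Usp22-KOB was -3.94 ± 0.16 (SE), which ranked 52 among the tested genes by size, while Gabrp and Cyp2s1 ranked 12 and 13.

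Samples of a group differed from each other much less than Usp22-KOA differed from the other groups. In the groups where a gene averaged over 30 TPM, the coefficient of variation ran from 3.45% (Tm4sf5 in WT) to 18.7% (Cyp2s1 in Usp22-KOB). At the low levels it was wider, at 84.8% for Tm4sf5 in Usp22-KOA and 73.5% for Ppef1 in Usp22-KOB. TPM keeps no read depth, and the depth behind these low values is unknown.

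Each knockout was also set against WT, to describe how far it lay from that group. The log2 differences of Usp22-KOA from WT were 6.47 ± 0.24 for Ppef1, -7.05 ± 0.20 for Tm4sf5, -6.36 ± 0.13 for Gabrp, -5.48 ± 0.14 for Cyp2s1 and -3.29 ± 0.16 for Fscn1 (SE). Those of Usp22-KOB from WT were 0.51 ± 0.24, -1.25 ± 0.20, -1.42 ± 0.13, -0.57 ± 0.14 and 0.65 ± 0.16 in the same order. These comparisons share the WT samples and use the knockout values by which the genes were chosen, so they carry no p-value. The Usp22-KOA and WT values did not overlap in 5 of the 5 genes, where 65.3% of all tested genes had none, and the Usp22-KOB and WT values did not overlap in 4 of 5, where 49.1% had none. Between the knockouts the values did not overlap in 5 of 5, against 58.3% of all tested genes, as the choice of the genes fixes.

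**Figure D2:**
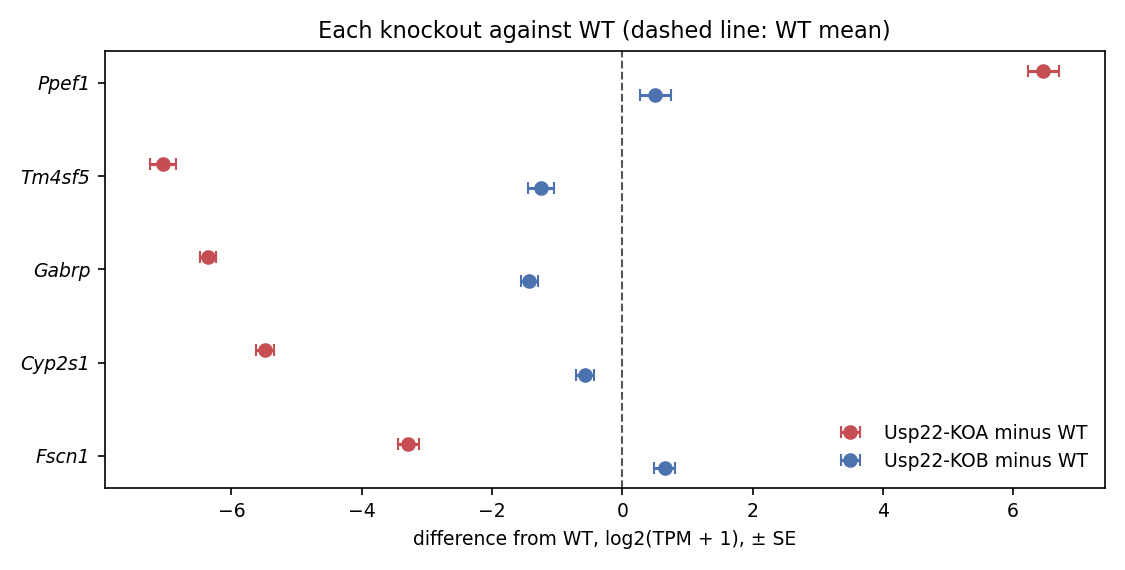
The horizontal axis is the difference of each knockout from WT in log2(TPM + 1) for the 5 genes, with points for Usp22-KOA and Usp22-KOB and bars for the SE from limma. The Usp22-KOA points run from -7.05 to 6.47, and the Usp22-KOB points run from -1.42 to 0.65, nearer to the WT line at 0 for each gene.

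The mean of both knockouts was also set against WT. The log2 differences were 3.49 ± 0.21 for Ppef1, -4.15 ± 0.17 for Tm4sf5, -3.89 ± 0.11 for Gabrp, -3.03 ± 0.13 for Cyp2s1 and -1.32 ± 0.14 for Fscn1 (SE). They are given as a description with no p-value, since the mean is made of the knockout values by which the genes were chosen. With gaps as wide as these between the knockouts, WT would have to lie almost at their midpoint to escape a call, and Ppef1 entered the fit only through Usp22-KOA. The limma calls, 5 of 5 beside 50.0% of all tested genes (25.9% higher, 24.1% lower), therefore say nothing particular about these genes. Treating all 6 knockout samples as replicates of 1 group called none of the 5. The gap by which the genes were chosen counts as spread there, so this too says nothing particular about them. The part of Usp22-KOA in each mean was larger than that of Usp22-KOB, as the differences from WT above show.

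Marker genes of the tumor cells and of other cells were read in the same samples. The keratins Krt8, Krt18 and Krt19 stood between 865.5 and 3000.9 TPM in every library, and the 12 epithelial markers together summed to 6317 to 7102 TPM in Usp22-KOA, 6899 to 8438 TPM in Usp22-KOB and 8085 to 8594 TPM in WT. Of the 10 tested, 7 were lower and 1 was higher in Usp22-KOA than in Usp22-KOB, and their part in the levels of Tm4sf5, Gabrp and Cyp2s1 was not tested. By limma, 24.2% of all tested genes were lower and 27.5% higher in Usp22-KOA than in Usp22-KOB. These shares are the background for all marker counts given here and below. Krt8, Krt18 and Krt19 made up most of each sum. Krt7, Cldn4 and Ocln had the order of groups seen for Tm4sf5, while Krt19 was highest in Usp22-KOA. Krt7 stood at 135 to 155 TPM in Usp22-KOA, 599 to 730 TPM in Usp22-KOB and 878 to 934 TPM in WT. Cldn4 stood at 0.806 to 1.54 TPM, 7.14 to 8.38 TPM and 39.8 to 46.3 TPM in the same order. The adhesion molecule Epcam was low in both knockouts. Epcam stood at 33.9, 24.7 and 54.4 TPM in Usp22-KOA and 25.4, 32.6 and 35.8 TPM in Usp22-KOB, against 399.6, 373.0 and 364.3 TPM in WT.

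Fscn1 is also a gene of dendritic cells and endothelium, and markers of both moved in part with it. The 11 dendritic cell markers summed to 48.1 to 69.8 TPM in Usp22-KOA, 117.4 to 158.8 TPM in Usp22-KOB and 63.0 to 80.0 TPM in WT, and 5 of 8 tested were lower and 0 higher in Usp22-KOA, set against Usp22-KOB. Cacnb3, Ccl17 and Cd83 made up most of each sum. The knockouts overlapped in Ccr7, at 1.35 to 2.99 TPM in Usp22-KOA and 1.89 to 3.89 TPM in Usp22-KOB. They also overlapped in Ccl22, Il4i1, Flt3 and Xcr1. The 10 endothelial markers summed to 7.40 to 14.7 TPM in Usp22-KOA, 35.4 to 52.8 TPM in Usp22-KOB and 42.1 to 59.4 TPM in WT, with 9 of 9 tested lower in Usp22-KOA. The 10 macrophage markers summed to 1402 to 3523 TPM in Usp22-KOA, 5994 to 10622 TPM in Usp22-KOB and 2104 to 3261 TPM in WT. The 16 mesenchymal and fibroblast markers summed to 3058 to 3463 TPM in Usp22-KOA, 3677 to 3794 TPM in Usp22-KOB and 2133 to 2688 TPM in WT, and 12 of 16 were lower and 3 higher in Usp22-KOA than in Usp22-KOB. The part of these cells in the Fscn1 level was not tested. In bulk RNA, fewer cells of a type and less RNA per cell cannot be told apart.

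Markers of other cell types that could carry one of the genes were read as well. The 8 neural and Schwann cell markers, cells in which Ppef1 is known, summed to 14.3 to 28.9 TPM in Usp22-KOA, 15.8 to 19.8 TPM in Usp22-KOB and 25.5 to 28.9 TPM in WT, and the Usp22-KOA sums overlapped those of both other groups. The 8 intestinal markers summed to 115.5 to 191.0 TPM in Usp22-KOA, 75.3 to 93.9 TPM in Usp22-KOB and 158.0 to 178.3 TPM in WT, with the gut transcription factor Cdx1 listed at 0 in all 9 samples. Another, Cdx2, stood at 61.4 to 70.6 TPM in Usp22-KOA, 19.6 to 21.0 TPM in Usp22-KOB and 27.3 to 28.6 TPM in WT. Of the 5 intestinal markers tested, limma called 3 higher and 0 lower in Usp22-KOA, set against Usp22-KOB. The keratinocyte and skin markers, among which Dsg1a was listed at 0 in all 9 samples, summed to at most 9.21 TPM in Usp22-KOA, 5.61 TPM in Usp22-KOB and 10.7 TPM in WT. Mast cell markers, summing to 1203 to 2497 TPM in Usp22-KOA, 95.5 to 129.0 TPM in Usp22-KOB and 151.7 to 185.9 TPM in WT, were highest in the same group as Ppef1 (8 of 8 higher in Usp22-KOA than in Usp22-KOB). Within Usp22-KOA each of them fell over samples 1 to 3, as in Cpa3 at 330.2, 260.5 and 154.7 TPM. Ppef1 rose over the same samples, at 107.6, 118.8 and 125.3 TPM. The part of mast cells in the Ppef1 level was not tested. Mcpt4 made up most of the WT sums, at 146 to 177 TPM in WT against 54.9 to 56.8 TPM in Usp22-KOB. Cpa3, Tpsb2 and Cma1 were instead lower in WT than in Usp22-KOB, with Cpa3 at 0.117 to 2.42 TPM and 6.16 to 9.56 TPM. The T and NK cell markers summed to 40.5 to 93.3 TPM in Usp22-KOA, 19.7 to 55.1 TPM in Usp22-KOB and 7.98 to 14.5 TPM in WT.

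Relatives and pathway partners of the 5 genes were then compared between the knockouts, gene by gene. The lists were drawn up by function with earlier results of these data known, and that of the Ppef1 relatives was narrowed after its values were seen. By limma 51.7% of all tested genes differed between Usp22-KOA and Usp22-KOB, 27.5% higher and 24.2% lower in Usp22-KOA, with a median difference of 0.027 on the log2 scale. The shares stand beside the counts as background. Gad1, Cyp2a5 and Nhs, a neighbour of Ppef1 described below, passed the limit for testing only through Usp22-KOA. Tm4sf19 passed it only through Usp22-KOB. The limit thus partly fixed the calls of these genes, and their p-values are no independent support for a difference.

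**Figure D3:**
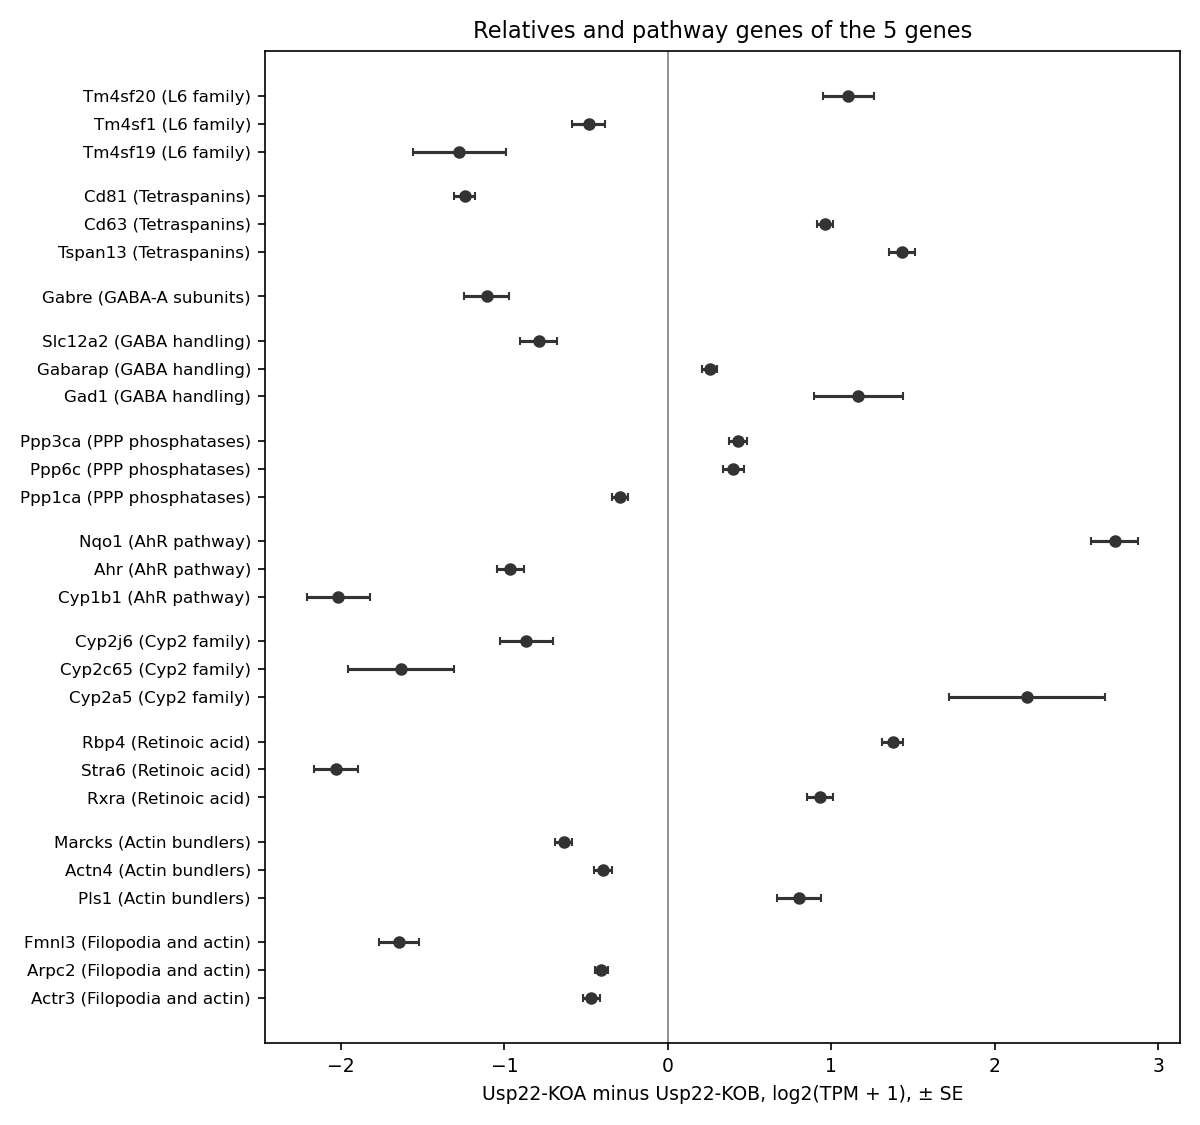
The horizontal axis is the difference of Usp22-KOA from Usp22-KOB in log2(TPM + 1), with SE from limma, for up to 3 genes with the smallest adjusted p in each of 10 lists of relatives and pathway genes. Genes of the same list lie on both sides of 0 in 8 of the lists, and none reaches the difference of Fscn1, the smallest of the 5 genes.

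Of the L6 family beside Tm4sf5, 4 of 4 were tested, with 2 higher and 2 lower in Usp22-KOA and a median of -0.14. Tm4sf20 averaged 203.1 ± 42.8 TPM in Usp22-KOA, 93.6 ± 16.8 TPM in Usp22-KOB and 199.4 ± 9.02 TPM in WT (SD, n = 3 each), a log2 difference between the knockouts of 1.10 ± 0.16 (limma adjusted p = 4.35e-04). Tm4sf1 averaged 138.4 ± 17.5 TPM in Usp22-KOA, 193.9 ± 22.1 TPM in Usp22-KOB and 278.9 ± 10.8 TPM in WT, a difference of -0.48 ± 0.10 (limma adjusted p = 0.00369). Tm4sf19 averaged 0.426 ± 0.381 TPM in Usp22-KOA, 2.46 ± 0.992 TPM in Usp22-KOB and 0.328 ± 0.293 TPM in WT, a difference of -1.28 ± 0.285 (limma adjusted p = 0.00515). The L6 genes moved in different directions, and none had the order of groups seen for Tm4sf5 except Tm4sf1. Of 12 tetraspanins of epithelia, 5 were higher and 3 lower in Usp22-KOA, with a median of 0.16. They included Cd63, a marker of late endosomes, with a difference of 0.96 ± 0.05, Tspan13 with 1.43 ± 0.08 and Cd81, a partner of immune and integrin receptors, with -1.24 ± 0.06 (limma adjusted p at most 1.98e-06).

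Gabrp and Gabre were the only GABA-A subunits that averaged 1 TPM or more over the 9 samples. Of the 18 other GABA-A subunits, 6 were listed at 0 in all 9 samples and 1, Gabre (epsilon), passed the limit for testing. Of the 17 that did not pass, the highest value in any sample was 0.893 TPM, for Gabrd in Usp22-KOA. Gabre had the same order of groups as Gabrp over a narrower range, with 1.25 ± 0.0866 TPM in Usp22-KOA, 3.85 ± 0.0643 TPM in Usp22-KOB and 5.90 ± 1.21 TPM in WT (SD, n = 3 each), a log2 difference between the knockouts of -1.11 ± 0.14 (limma adjusted p = 1.8e-04). Of 15 genes that make, move or sense GABA, 5 were tested, with 2 higher and 1 lower in Usp22-KOA and a median of 0.26. Gad1, which makes GABA from glutamate, averaged 2.61 ± 1.19 TPM in Usp22-KOA, 0.596 ± 0.419 TPM in Usp22-KOB and 0.522 ± 0.0681 TPM in WT (log2 difference of the knockouts 1.17 ± 0.27, limma adjusted p = 0.00638). Slc12a2, the cotransporter that loads cells with chloride, was lower in Usp22-KOA (-0.79 ± 0.11, limma adjusted p = 4.34e-04), and Gabarap, named for binding the receptor and known from autophagy, was higher (0.26 ± 0.05, limma adjusted p = 0.00147).

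For Ppef1, the list held 12 phosphatases of the same superfamily. In Usp22-KOA 3 were higher and 2 lower than in Usp22-KOB, and the median was 0.061. Ppp3ca, a catalytic subunit of calcineurin, averaged 43.3 ± 1.72 TPM in Usp22-KOA, 31.9 ± 0.701 TPM in Usp22-KOB and 36.3 ± 1.04 TPM in WT (SD, n = 3 each), a difference between the knockouts of 0.43 ± 0.05 (limma adjusted p = 2.14e-04). Ppp6c was higher in Usp22-KOA (0.40 ± 0.06) and Ppp1ca, a catalytic subunit of protein phosphatase 1, was lower (-0.29 ± 0.05), at limma adjusted p-values of 8.33e-04 and 9.48e-04. The nearest relative, Ppef2, was tested and not called.

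Genes around Cyp2s1 in metabolism moved in both directions. Of 9 tested genes of the aryl hydrocarbon receptor pathway, 3 were higher and 4 lower in Usp22-KOA, with a median of 0.12. The receptor gene Ahr averaged 5.61 ± 0.374 TPM in Usp22-KOA, 11.9 ± 0.574 TPM in Usp22-KOB and 15.4 ± 1.09 TPM in WT (SD, n = 3 each), and Cyp1b1, a P450 induced through it, averaged 3.16 ± 1.20 TPM in Usp22-KOA, 15.4 ± 1.79 TPM in Usp22-KOB and 10.01 ± 1.08 TPM in WT. Their differences between the knockouts were -0.96 ± 0.08 and -2.02 ± 0.19 (limma adjusted p = 2.47e-05 and 4.26e-05). Nqo1, a quinone reductase under both this receptor and Nrf2, ran the other way, with 41.6 ± 9.34 TPM in Usp22-KOA, 5.31 ± 0.409 TPM in Usp22-KOB and 16.3 ± 1.02 TPM in WT (2.73 ± 0.14, limma adjusted p = 1.52e-06). Cyp1a1, the classic target of the receptor, was listed at 0 in all 9 samples.

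Of the 24 other Cyp2 genes only 6 passed the limit for testing, with 1 higher and 2 lower in Usp22-KOA and a median of -0.23. Cyp2c65 averaged 2.65 ± 1.60 TPM in Usp22-KOA, 9.73 ± 2.69 TPM in Usp22-KOB and 29.5 ± 1.44 TPM in WT (SD, n = 3 each), a difference between the knockouts of -1.63 ± 0.33 (limma adjusted p = 0.00292), and Cyp2j6 differed by -0.87 ± 0.16 (limma adjusted p = 0.00203). Cyp2a5 ranged from 0.799 to 6.75 TPM in Usp22-KOA and was listed at 0 in each Usp22-KOB and WT sample. Reads of Cyp2a5 can be shared with its near-identical relative Cyp2a4, so its value is uncertain.

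Of 14 tested genes of the retinoic acid pathway, 7 were lower and 3 higher in Usp22-KOA, with a median of -0.50. Stra6, a membrane receptor for retinol uptake, averaged 0.349 ± 0.0275 TPM in Usp22-KOA, 4.57 ± 0.963 TPM in Usp22-KOB and 17.1 ± 0.952 TPM in WT (SD, n = 3 each), the same order as Gabrp (difference of the knockouts -2.03 ± 0.14, limma adjusted p = 5.8e-06). The plasma retinol carrier Rbp4 and the retinoid receptor Rxra were higher in Usp22-KOA, with differences of 1.38 ± 0.07 and 0.93 ± 0.08 (limma adjusted p = 9.71e-07 and 2.13e-05). The retinaldehyde dehydrogenases Aldh1a2 and Aldh1a3, named here after their values were seen, differed by -2.33 and -2.36.

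The other fascins were barely present, with Fscn2 at most 0.798 TPM and Fscn3 at most 0.111 TPM in any sample. Of 12 tested actin bundlers beside Fscn1, 5 were lower and 2 higher in Usp22-KOA, with a median of -0.13. Marcks, an actin-binding substrate of protein kinase C, and Actn4, an alpha-actinin, were lower (-0.64 ± 0.05 and -0.40 ± 0.05), and the fimbrin Pls1 was higher (0.80 ± 0.14), at limma adjusted p-values of 1.4e-05, 3.29e-04 and 0.00111. Of 20 genes of filopodia and actin assembly, 8 were higher and 8 lower, with a median of -0.10. The formin Fmnl3 averaged 9.72 ± 1.90 TPM in Usp22-KOA, 32.2 ± 2.27 TPM in Usp22-KOB and 28.7 ± 0.957 TPM in WT (SD, n = 3 each), a difference between the knockouts of -1.64 ± 0.12 (limma adjusted p = 1.07e-05). The Arp2/3 complex genes Arpc2 and Actr3 were lower in Usp22-KOA, with differences of -0.41 ± 0.04 and -0.47 ± 0.05 (limma adjusted p = 6.04e-05 and 8.87e-05).

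The genes next to the 5 along their chromosomes were compared in the same way, taking the 5 tested genes on each side. Between the knockouts 32 of the 50 neighbours were called, or 64.0%, against 51.7% of all tested genes. The called neighbours of Ppef1 lay on one side, since 8 of 10 were higher in Usp22-KOA and 0 lower, over 3.30 Mb of chromosome X, with a median of 0.57. On the whole of chromosome X 44.9% of 399 tested genes were higher and 15.5% lower in Usp22-KOA, with a median of 0.23. Against WT the median of the Ppef1 neighbours was 0.77 for Usp22-KOA but -0.014 for Usp22-KOB.

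Among the neighbours of Ppef1, Nhs, the gene of Nance-Horan syndrome, stood at 7.61 to 12.7 TPM in Usp22-KOA, 0.0176 to 0.0357 TPM in Usp22-KOB and 0.304 to 0.607 TPM in WT (chromosome X, 161833296 to 162159730). Its difference between the knockouts was 3.32 ± 0.19 on the log2 scale (limma adjusted p = 2.7e-06), with the same high group as Ppef1. Adgrg2, an adhesion receptor known from the epididymis, stood at 12.9 to 17.9 TPM in Usp22-KOA, 3.33 to 4.59 TPM in Usp22-KOB and 3.25 to 4.39 TPM in WT (chromosome X, 160390690 to 160498070), a difference of 1.76 ± 0.16 (limma adjusted p = 2.76e-05).

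**Figure D4:**
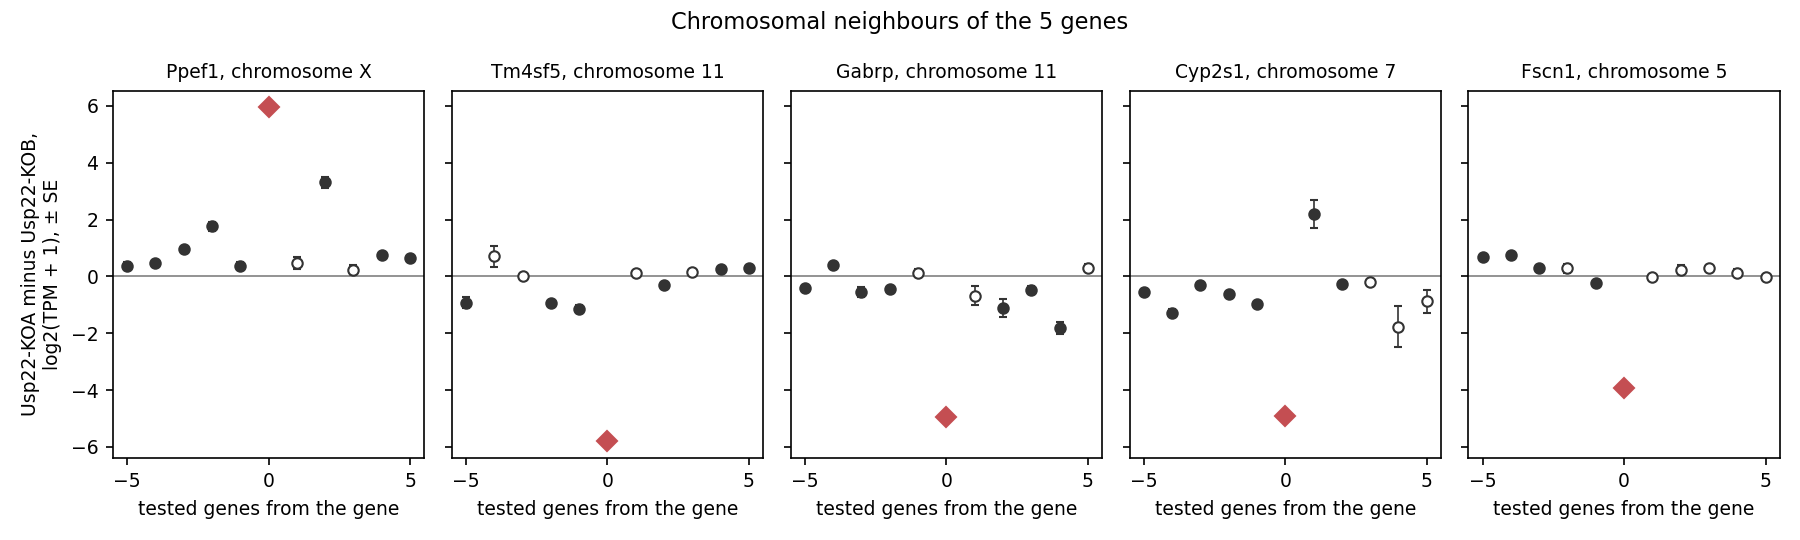
The vertical axis is the difference of Usp22-KOA from Usp22-KOB in log2(TPM + 1), with SE, for the 5 tested genes on each side of Ppef1, Tm4sf5, Gabrp, Cyp2s1 and Fscn1, whose own difference is the diamond. Filled points are called by limma, and the points around Ppef1 all lie above 0 while the diamond is beyond every neighbour in each panel.

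Cyp2s1 had 6 of 10 neighbours lower and 1 higher in Usp22-KOA, with a median of -0.57, and on chromosome 7 as a whole 35.1% of 1052 tested genes were lower and 15.8% higher. The growth factor gene Tgfb1 stood at 49.4 to 68.5 TPM in Usp22-KOA, 125.0 to 153.7 TPM in Usp22-KOB and 95.1 to 98.3 TPM in WT, a difference between the knockouts of -1.28 ± 0.12. The 1 neighbour that was higher was Cyp2a5, described above. Gabrp had 6 of 10 lower and 1 higher, with Slit3, a secreted guidance ligand, at a difference of -1.82 ± 0.20 and Dock2, an activator of Rac in white blood cells, at -1.10 ± 0.32. Dock2 moved with the macrophage marker sums given above, and their part in it was not tested. Tm4sf5 had 4 lower and 2 higher, with Zmynd15 at -1.15 ± 0.15. Fscn1 had 3 higher and 1 lower, so its neighbours did not share its direction, and chromosome 5 as a whole had 42.7% of 874 tested genes higher and 17.3% lower in Usp22-KOA. Chromosome 11, which holds Tm4sf5, Gabrp and Usp22, had 30.5% of 1169 higher and 17.5% lower.

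How common the switched pattern was in the table was counted with a fixed pair of limits, all 3 samples of a knockout under 1 TPM and all 3 of the other at or above 10 TPM. In that sense 12 genes were on in Usp22-KOA and off in Usp22-KOB, and 9 were on in Usp22-KOB and off in Usp22-KOA. Of the 5 genes only Gabrp met both limits, because 1 Usp22-KOB sample of Ppef1, 1 Usp22-KOA sample of Tm4sf5 and all Usp22-KOA samples of Cyp2s1 were above 1 TPM, and Fscn1 was above 4 TPM in Usp22-KOA. Gabrp had the highest Usp22-KOB mean of the 9. WT was under 1 TPM for 7 of the 12 and at or above 10 TPM for 3 of them, and for the 9 it was under 1 TPM for 0 and at or above 10 TPM for 5.

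Of the genes on in Usp22-KOA, Mug1, a protease inhibitor of the murinoglobulin family, averaged 45.3 TPM in Usp22-KOA, 0.358 TPM in Usp22-KOB and 0.0631 TPM in WT. C1qtnf7, a secreted C1q-related protein, averaged 33.5 TPM in Usp22-KOA, 0.455 TPM in Usp22-KOB and 0.191 TPM in WT. Speer4c averaged 24.9 TPM in Usp22-KOA, was listed at 0 in each Usp22-KOB sample and averaged 0.206 TPM in WT, and it belongs to a multigene family whose reads can be shared. These 3 genes had the arrangement of Ppef1. Of the genes on in Usp22-KOB, Scara3, a scavenger receptor, averaged 0.195 TPM in Usp22-KOA, 33.1 TPM in Usp22-KOB and 76.4 TPM in WT, and Atg9b, an autophagy gene, averaged 0.504 TPM in Usp22-KOA, 24.2 TPM in Usp22-KOB and 20.2 TPM in WT.

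Genes with the most similar course were sought by the Pearson correlation of log2(TPM + 1) over the 9 samples, among 11496 genes. Because the samples form 3 groups, r mainly reflects the relative position of the group means, and many genes share it: between 377 (Fscn1) and 753 (Ppef1) genes had r over 0.95. The 3 nearest to Gabrp were Mcc, Scara3 and the gastric protease gene Ctse (r = 0.998 each). Scara3 stood at 0.0561 to 0.375 TPM in Usp22-KOA, 31.9 to 34.7 TPM in Usp22-KOB and 76.0 to 76.8 TPM in WT. Nearest to Tm4sf5 were the annexin Anxa10, the tropomyosin Tpm2 and the epithelial anchoring gene Lad1 (r = 0.998 each), with Anxa10 at 2.96 to 3.84 TPM in Usp22-KOA, 47.4 to 53.8 TPM in Usp22-KOB and 70.5 to 86.5 TPM in WT.

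Nearest to Cyp2s1 were Svip (r = 0.999), the desmosomal plakophilin gene Pkp2 and the adhesion gene Ncam1 (r = 0.998 each), with Ncam1 at 0.592 to 0.677 TPM in Usp22-KOA, 8.46 to 11.3 TPM in Usp22-KOB and 12.7 to 13.6 TPM in WT. Nearest to Fscn1 were Insig1, a sterol-regulated retention protein (r = 0.998), the Arf regulator Asap1 (0.997) and Tpt1 (0.995). Insig1 stood at 9.83 to 12.1 TPM in Usp22-KOA, 45.8 to 55.1 TPM in Usp22-KOB and 35.7 to 39.0 TPM in WT, the same order as Fscn1. Nearest to Ppef1 were the tubulin gene Tubb4b (r = 0.999), Ginm1 (0.9975) and the ubiquitin ligase gene Chfr (0.997). Tubb4b stood at 523.4 to 543.0 TPM in Usp22-KOA, 205.1 to 240.1 TPM in Usp22-KOB and 206.3 to 220.6 TPM in WT, so its course was like that of Ppef1 but its change was only a few-fold.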

How the data were processed

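The authors deposited 1 table of TPM values for 24493 genes and 9 samples, 1 column per sample. Salmon, DESeq2 and mm10 are named, without roles or versions, per the submitters' processing notes. The annotation, the read depth and the role of each tool are not stated there. Each column sums to 1000000, between 6520 and 7234 genes per library are at 0, and the 10 highest features hold 10.9% to 15.0% of a library.

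The deposited TPM values were put on a log2(TPM + 1) scale, and genes averaging 1 TPM or more were tested (13843 tested, 10650 set aside). One limma fit (trended eBayes) over the 3 groups served all comparisons, p-values were adjusted over all tested genes (Benjamini-Hochberg), and the fit was checked on simulated data. No p-value is given for the 5 genes.

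The 5 genes, the 10 related lists, the 10 marker lists and the tests were chosen with earlier results of these data known. Named genes were Usp22, the 5 genes, the 3 nearest by correlation, the 3 smallest adjusted p in each related list, neighbours called with a log2 difference of at least 1 and the 3 highest switched genes in each direction. Further genes, such as Epcam, Krt7, Cldn4, Ocln, Cdx2, Mcpt4, Cpa3, Tpsb2, Cma1, Cyp1a1, Aldh1a2, Aldh1a3, Ppef2, Fscn2, Fscn3 and Gabrd, were named after their values were seen. One gene of the lists is not reported here, and the list of Ppef1 relatives was limited to phosphatases after its values were seen. Coordinates are from GENCODE M21 (GRCm38), matched by symbol, and promoter sequences from RefSeq (GRCm38.p6). Alternatives were other pseudocounts, filters, scalings and limma settings, the replicate number as a block and samples left out. The fits ran in limma 3.58.1 under R 4.3.3, and tables and plots were made in Python 3.11.15 (matplotlib 3.10.9, numpy 2.4.6, pandas 2.3.3).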

Additional observations from a re-analysis of the deposited data

Results flagged for a closer look

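In 17 of the genes named outside the cell type marker lists, every Usp22-KOA sample lay on one side of all WT samples and every Usp22-KOB sample on the other. Of the 5 genes this was so for Fscn1, with log2 differences from WT of -3.29 for Usp22-KOA but 0.65 for Usp22-KOB. The gap between the knockouts was not tested for Fscn1, which was chosen by it, or for Insig1 (-1.66 and 0.42), Asap1 (-0.75 and 0.16) and Tpt1 (-0.41 and 0.086), which were picked for their likeness to Fscn1. For the other 13 it was tested in limma. They were named for a small adjusted p or a large gap between the knockouts, or, for Aldh1a2, after its values were seen. The count of 17 therefore does not measure how common such genes are. Usp22-KOA below WT and Usp22-KOB above it, without overlap, was found in 2.99% of all tested genes. The share with the opposite arrangement is not given here. Below WT in Usp22-KOA and above it in Usp22-KOB were Cyp1b1 (log2 -1.44 and 0.57, limma adjusted p of the gap 4.26e-05), Fmnl3 (-1.49 and 0.16, 1.07e-05), Marcks (-0.40 and 0.23, 1.4e-05), Arpc2 (-0.30 and 0.11, 6.04e-05), Slit3 (-1.01 and 0.81, 8.74e-05), Tgfb1 (-0.73 and 0.54, 3.08e-05) and Aldh1a2 (-0.97 and 1.36, 1.88e-04). Above WT in Usp22-KOA and below it in Usp22-KOB were Nqo1 (1.28 and -1.45, 1.52e-06), Rbp4 (0.81 and -0.56, 9.71e-07), Tspan13 (0.61 and -0.82, 1.98e-06), Pls1 (0.44 and -0.37, 0.00111), Ppp3ca (0.25 and -0.18, 2.14e-04) and Nhs (2.81 and -0.51, 2.7e-06). Outside this count, the cell type markers Mcpt4 and Cdx2 also lay above WT in Usp22-KOA and below it in Usp22-KOB, without overlap. Groups of 3 samples are too small for a check of single outlying samples.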

How the results depend on the processing

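For the mean of both knockouts against WT, a description for the 5 genes, the direction was kept in all alternatives run. Joining the 6 knockout samples into 1 group, an alternative chosen after seeing the data, called none of the 5. The log2 differences were unchanged at 3.49 for Ppef1, -4.15 for Tm4sf5, -3.89 for Gabrp, -3.03 for Cyp2s1 and -1.32 for Fscn1. The gap by which the genes were chosen counts as spread there, so this loss of calls says nothing particular about them. Over all tested genes 2946 were called in place of 6920. With 1 sample left out the differences ran from 3.34 to 3.62, -4.27 to -4.07, -3.97 to -3.75, -3.10 to -2.97 and -1.40 to -1.22 in the same gene order. The pseudocount moved sizes most: for Usp22-KOA minus Usp22-KOB, 0.1 gave 6.99 for Ppef1, -7.18 for Tm4sf5 and -7.05 for Gabrp, which put Ppef1 behind both others, and 5 gave 4.36, -4.01 and -2.94. Limits of 0.5 and 5 TPM gave 22 switched genes on in Usp22-KOA and 18 on in Usp22-KOB, and limits of 2 and 20 TPM gave 13 and 7, with Ppef1 among the 13 and Tm4sf5, Gabrp and Cyp2s1 among the 7. Taking 10 neighbours on each side, 61.0% were called, with 15 of 20 higher and 0 lower around Ppef1. The replicate number as a block called 6702 genes when both knockouts were set against WT, and 6922 in place of 7158 between the knockouts. Of 9 same-numbered pairs 2 correlated over 0.1, and 5 of 9 samples matched best a sample of their own number. The highest r was 0.276 among same-numbered pairs and 0.201 among the others. With so few samples this cannot decide whether a shared number marks a pairing.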

Other observations

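The share of genes that differed between the knockouts was uneven over chromosomes. On chromosome 1, 57.3% of 804 tested genes were lower and 6.84% higher in Usp22-KOA than in Usp22-KOB (limma, adjusted p under 0.05), with a median log2 difference of -0.36. Chromosome 19 had 56.7% of 480 lower and 4.79% higher (median -0.34), and chromosome 15 had 51.3% of 534 lower and 59 genes higher (median -0.30). Chromosome 16 ran the other way, with 46.0% of 439 higher and 11.4% lower (median 0.23). Over all tested genes 24.2% were lower and 27.5% higher. Against WT the medians of chromosomes 1, 19 and 15 were -0.32, -0.30 and -0.25 for Usp22-KOA, while those for Usp22-KOB were 0.025, 0.010 and -0.0026. On chromosome 3 both knockouts lay below WT, with medians of -0.20 in Usp22-KOA and -0.33 in Usp22-KOB. DNA copy number was not analysed here. None of the 5 genes lies on chromosomes 1, 3, 15, 16 or 19, and the chromosomes were picked out after their values were seen.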
